A study of Mus musculus with 4 samples.

Results

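The genes described here are 10 genes for matricellular and adhesive matrix glycoproteins, chosen by symbol from the table of 50600 genes: tenascin C (Tnc), fibronectin (Fn1), thrombospondins 1, 2 and 3 (Thbs1, Thbs2, Thbs3), Sparc, osteopontin (Spp1), periostin (Postn) and the nidogens (Nid1, Nid2). Each symbol matched 1 row. Expression was measured by RNA sequencing of Py8119, a mouse mammary tumour line that the labels give as C57BL/6 and mesenchymal-like. A population with the genotype Mtss1 overexpression (2 libraries, titled Mtss1) was set against a population with the genotype control (2 libraries, titled hygro). Both were grown in IMDM with fetal bovine serum and received no treatment, so the added Mtss1 is the stated difference between them. Whether either population is 1 clone or a pool, and which promoter drives the added Mtss1, the labels do not say. By its title, the series asks how Mtss1 bears on tumour-initiating cells of the mammary gland and on loss of the p65 subunit of NF-kB.

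Matricellular proteins are secreted into the matrix but act mainly on how cells attach, spread and signal rather than as scaffold. Fibronectin is an adhesive fibril-forming glycoprotein that cells bind through integrins, and tenascin C binds to it and weakens cell attachment to it. Tenascin C, periostin, osteopontin and Sparc are known from wound repair and tumour stroma, while nidogens join the laminin and collagen IV networks of basement membranes. In mammary tumours such genes can be made by stromal cells and by the tumour cells themselves.

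Values are in CPM, reads scaled to about 1000000 a library. The columns summed to 982877 and 991293 CPM in the overexpression libraries and to 1009970 and 1016225 CPM in the control libraries. Recovered totals were 15594209 and 16656638 reads in the overexpression libraries and 20617788 and 22081639 reads in the control libraries. Mtss1 itself read 118 and 119 CPM in the overexpression libraries, against 54.5 and 50.5 CPM in the control libraries, so the libraries labelled overexpression were the higher. The 7 mesenchymal markers all passed the expression filter, and summed to 4514 and 4654 CPM in the overexpression libraries and to 4505 and 4798 CPM in the control libraries, nearly all of it Vim. One by one, Zeb1 and Twist1 were called higher, Cdh2, Zeb2 and Snai1 lower, and Vim and Snai2 were not past the test. Of the epithelial markers, Epcam and Krt5 were at 0 in every library, and Cdh1 read at most 0.0920 CPM. The 6 epithelial markers summed to 601 and 603 CPM in the overexpression libraries and to 849 and 893 CPM in the control libraries. That sum was nearly all Krt8 and Krt18, both called lower. The 12 fibroblast markers summed to 235 CPM in each overexpression library and to 352 and 367 CPM in the control libraries, with Dpt and Fap at 0. They did not all move with the sum: Pdgfra, Pdgfrb and Col1a2 were called lower, whereas Col1a1 and Col3a1 were called higher. Cxcl12 was not past the test, and 6 lay under the filter. The 10 immune markers summed to 102 and 105 CPM in the overexpression libraries and to 29.3 and 31.1 CPM in the control libraries. Most of that was the lysosomal gene Cd68 (91.9 and 92.4 CPM in the overexpression libraries, 19.8 and 17.4 CPM in the control libraries), whereas Ptprc, Adgre1 and Csf1r read at most 0.375 CPM and Cd3e, Ms4a1 and Itgam were at 0. The 5 endothelial markers summed to at most 1.19 CPM in any library. The part of the epithelial, fibroblast and immune markers in the results below was not tested.

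Among the 10 genes, Tnc, Sparc, Thbs3, Thbs1 and Spp1 were higher with Mtss1 overexpression and Fn1 and Thbs2 were lower. On the log2(CPM + 1) scale Tnc differed most, at 4.90 times the control CPM, although Thbs2, with few reads, had the larger ratio of CPM, and Fn1, the most abundant of them by reads, was at 0.815 times the control level. Postn, Nid1 and Nid2 lay under the expression filter of 1 CPM in at least 2 libraries and were not tested. Genes were called at an adjusted p under 0.05 from limma on log2(CPM + 1), fitted to all 12510 genes past the filter. The wide difference between the populations sets the background for these counts. Of all tested genes 66.1% were called, 31.9% as higher and 34.2% as lower, so that being called says little by itself. The median log2 fold change was 0.88 over the 7 tested genes and -0.01 over all tested genes, whose quartiles were -0.29 and 0.27. Thbs2 passed the filter only through the control libraries, where it is higher, so a test of it could hardly come out otherwise. The overexpression and control libraries did not overlap for any of the 7, nor did they for 81.6% of all tested genes. Separate cultures are not stated for the replicates, so each p-value refers to the spread among these libraries alone, and that spread may be technical. It is also moderated, as limma drew each gene's variance toward that of genes at a similar level. With 20 prior against 2 residual degrees of freedom, each SE and p-value rests mostly on spread shared across genes. In bulk RNA, fewer cells of a kind and less RNA per cell cannot be told apart.

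**Figure D1:**
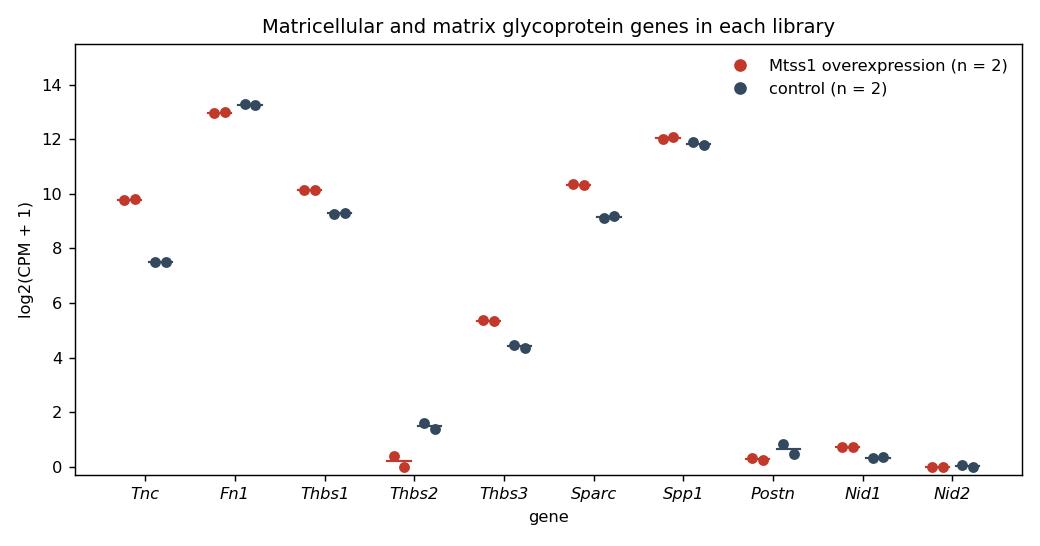
Level of each of the 10 genes, as log2(CPM + 1), in the 2 Mtss1 overexpression libraries (red, left in each pair) and the 2 control libraries (dark, right), with short lines at the group means. The replicates lie close together for the abundant genes, Tnc has the widest gap among them, and Thbs2, Postn, Nid1 and Nid2 lie near 0.

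Tnc encodes a hexameric glycoprotein that is scarce in most adult tissue and made in healing wounds and tumours. It read 877 and 891 CPM in the overexpression libraries, against 181 and 180 CPM in the control libraries. Both overexpression libraries stood far above both control libraries, and the replicates of each group lay close together. The means were 884 ± 10.2 CPM with overexpression and 180 ± 0.581 CPM in the control (SD, n = 2 each), a log2 fold change of 2.29 ± 0.034 (SE, limma adjusted p = 1.95e-23). This was the rise of rank 110 among the 12510 tested genes, and it rests on 13911 and 14976 reads in the overexpression libraries and 3693 and 3913 reads in the control libraries. By level, Tnc held rank 101 of all genes in the overexpression mean and rank 1170 in the control mean. Tnc spans bases 63959785 to 64047015 of chromosome 4 (mm10, minus strand), and its longest coding transcript has 26 exons and 7106 bases. The table has 1 value a gene, so the alternatively spliced fibronectin type III repeats of Tnc cannot be read from it. An antisense transcript gene, 8030451A03Rik, shares 176 exonic bases with Tnc and read at most 0.417 CPM.

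Upstream sequences from RefSeq (GRCm38.p6) are shown for Tnc and Thbs3, which rose, and Thbs2, which fell. Each is the 250 bases before an annotated transcription start, 5′ to 3′ on the gene's own strand, with no annotated exon in it. The Tnc window is chr4:64047016-64047265 (minus strand), the Thbs3 window chr3:89214930-89215179 (plus strand) and the Thbs2 window chr17:14694263-14694512 (minus strand). Capitals mark matches to the motifs searched.
Tnc: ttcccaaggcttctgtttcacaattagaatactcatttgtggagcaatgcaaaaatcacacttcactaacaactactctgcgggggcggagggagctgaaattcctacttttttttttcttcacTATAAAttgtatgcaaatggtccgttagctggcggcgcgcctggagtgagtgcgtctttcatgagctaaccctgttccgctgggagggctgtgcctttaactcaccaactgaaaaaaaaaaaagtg
Thbs3: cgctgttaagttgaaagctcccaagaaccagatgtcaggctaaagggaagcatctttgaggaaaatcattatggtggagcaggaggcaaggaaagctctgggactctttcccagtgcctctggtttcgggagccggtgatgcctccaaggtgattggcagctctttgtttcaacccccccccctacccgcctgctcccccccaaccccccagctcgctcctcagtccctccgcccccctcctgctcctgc
Thbs2: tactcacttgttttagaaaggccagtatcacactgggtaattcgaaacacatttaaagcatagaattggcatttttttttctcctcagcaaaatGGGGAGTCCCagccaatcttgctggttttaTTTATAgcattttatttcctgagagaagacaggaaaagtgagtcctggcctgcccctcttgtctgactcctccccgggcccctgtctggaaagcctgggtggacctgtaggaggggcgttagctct

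The windows were searched on both strands for the TEAD core CATTCC, the AP-1 site TGANTCA, the paired SMAD element GTCTAGAC, the TATA box TATAAA, the CArG box bound by serum response factor, and the NF-kB consensus. Tnc held a TATA match from 126 to 121 bases before the start used here. From another annotated Tnc start, the same letters lie 205 to 200 bases upstream. Thbs2 held a TATA match from 126 to 121 bases before its start, on the opposite strand. It also held an NF-kB consensus from 156 to 147 bases before the start, which reads as a match on either strand. The Thbs3 window held none of these letters. Among 32851 RefSeq windows of the same length, 12.4% held the TATA letters, 7.25% the NF-kB consensus, 12.6% the TEAD core, 6.75% the AP-1 site, 1.47% the CArG box and 0.167% the SMAD element. The GC share was 44.8% for Tnc, 58.8% for Thbs3 and 46.8% for Thbs2, against a median of 52.4% over all windows. RefSeq windows were found for 7 of the 10 genes, and these matches describe letters only. In windows not shown, Postn held a TATA match from 26 to 21 bases before a start, and Spp1 one from 211 to 206 bases. Nid1 held a TEAD match from 165 to 160 bases before its start, on the opposite strand, and Sparc held no match.

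Fn1 was the member with the most reads, and it moved opposite to Tnc. It read 7960 and 8244 CPM in the overexpression libraries, against 10026 and 9858 CPM in the control libraries. The groups did not overlap, although the gap was small beside that of Tnc. Its log2 fold change was -0.30 ± 0.038 (SE, limma adjusted p = 5.78e-07), with means of 8102 ± 201 CPM with overexpression and 9942 ± 119 CPM in the control (SD, n = 2 each). That value lies at the lower quartile of all tested genes. Fn1 held rank 2 by level in both groups, and 126298 to 214200 reads a library stand behind it. Fn1 spans bases 71585520 to 71653200 of chromosome 1 (mm10, minus strand). The inclusion of the EDA and EDB exons, which separates cellular from plasma fibronectin, cannot be read from gene totals. The share of Tnc to Fn1 within a library does not depend on the scaling between libraries. There were 11.0 and 10.8 Tnc reads per 100 Fn1 reads in the overexpression libraries, against 1.80 and 1.83 in the control libraries.

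The thrombospondins split. Thbs1 encodes a trimeric glycoprotein that inhibits angiogenesis, binds CD36 and CD47 and can activate latent TGF-beta. It read 1142 and 1145 CPM in the overexpression libraries, against 618 and 627 CPM in the control libraries. The replicates differed by little beside the gap between groups. The log2 fold change of Thbs1 was 0.88 ± 0.032 (SE, limma adjusted p = 2.54e-16), or 1.84-fold, and the gene spans bases 118111876 to 118127133 of chromosome 2 (mm10, plus strand). Thbs3, whose protein assembles as a pentamer like cartilage oligomeric matrix protein, was much less abundant. It read 41.0 and 39.0 CPM in the overexpression libraries, against 21.1 and 19.6 CPM in the control libraries. The log2 fold change of Thbs3 was 0.94 ± 0.077 (SE, limma adjusted p = 3.3e-10), or 1.97-fold. Thbs1 and Thbs3 differed by similar factors, and their ratio did not separate the groups. There were 27.9 and 29.3 Thbs1 reads per Thbs3 read in the overexpression libraries and 29.2 and 32.1 in the control libraries. On chromosome 3, Thbs3 (plus strand, 89215180 to 89226837) shares 318 exonic bases with Mtx1 on the minus strand. The labels do not say whether counting used strand, so reads of the shared bases could be placed with either gene. Mtx1 read 39.9 and 39.0 CPM in the overexpression libraries and 36.7 CPM in each control library (limma adjusted p = 0.175, not called).

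Thbs2, the close relative of Thbs1 and also a trimeric inhibitor of angiogenesis, went the other way at a level near the limit of detection. It read 0.315 and 0 CPM in the overexpression libraries, against 2.01 and 1.61 CPM in the control libraries. These are 5 and 0 reads with overexpression and 41 and 35 reads in the control. The ratio of the summed reads per library size was 0.0849, with a 95% interval of 0.0268 to 0.207 that covers counting error only. The log2 fold change of -1.29 ± 0.21 (SE, limma adjusted p = 1.21e-05) depends on the pseudocount, and was -3.22 with a pseudocount of 0.1 and -0.40 with one of 5. Leaving out control 1 or control 2 left Thbs2 under the filter and untested. The gene spans bases 14665500 to 14694235 of chromosome 17 (mm10, minus strand).

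**Figure D2:**
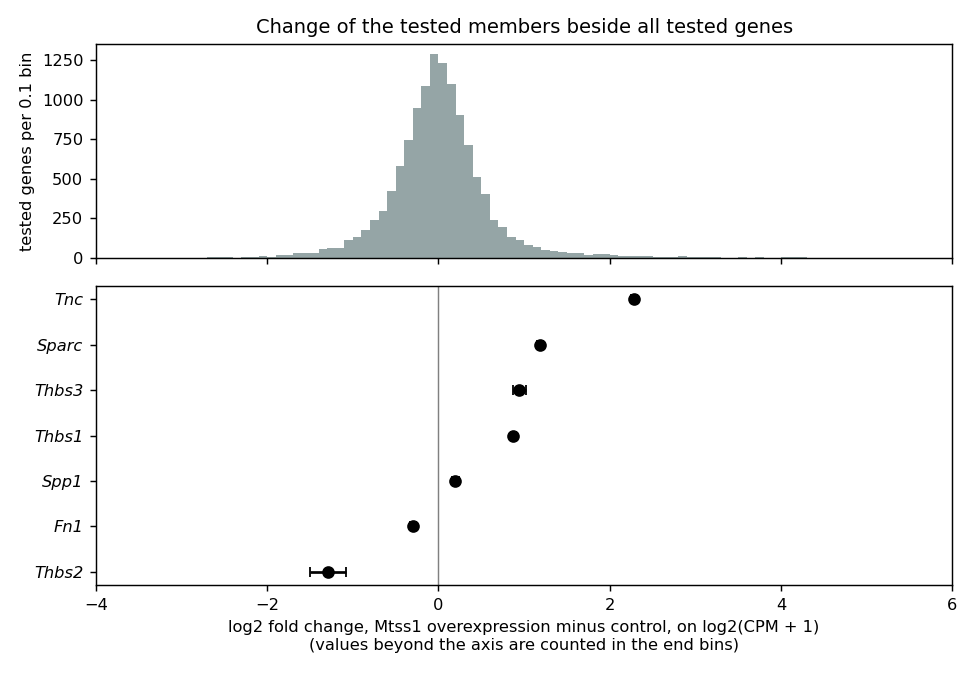
Upper panel, number of tested genes by log2 fold change of Mtss1 overexpression minus control, in bins of 0.1. Lower panel, log2 fold change and SE of the 7 tested members on the same axis, from Tnc at 2.29 to Thbs2 at -1.29, with Spp1 and Fn1 inside the main body of all tested genes.

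Sparc encodes a calcium- and collagen-binding glycoprotein that is counter-adhesive and takes part in collagen deposition. It read 1303 and 1299 CPM in the overexpression libraries, against 561 and 584 CPM in the control libraries. The groups were far apart beside the spread of their replicates. The log2 fold change of Sparc was 1.18 ± 0.033 (SE, limma adjusted p = 1.84e-18), or 2.27-fold. By level it held rank 46 with overexpression and rank 218 in the control, on chromosome 11 from 55394500 to 55423183 (mm10, minus strand).

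Spp1 encodes osteopontin, a secreted phosphoprotein that binds integrins and CD44. It read 4100 and 4358 CPM in the overexpression libraries, against 3807 and 3568 CPM in the control libraries. The groups did not overlap, though the gap between them was about as large as that between replicates. The log2 fold change of Spp1 was 0.20 ± 0.040 (SE, limma adjusted p = 0.000143), or 1.15-fold, and lies below the upper quartile of all tested genes. Spp1 lies on chromosome 5 from 104435118 to 104441050 (mm10, plus strand). The unvalidated gene model Gm42793 shares 309 exonic bases with it on the same strand. That model read 5.61 and 7.92 CPM in the overexpression libraries and 16.6 and 13.4 CPM in the control libraries, little beside Spp1 itself.

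Postn, Nid1 and Nid2 were close to silent in both populations. Postn, a fasciclin-domain protein that binds tenascin C and is induced by TGF-beta, had 4 and 3 reads in the overexpression libraries and 16 and 8 reads in the control libraries. The ratio of summed reads per library size was 0.376 for Postn (95% interval 0.137 to 0.90, counting error only). Nid1 had 10 and 11 reads in the overexpression libraries and 5 and 6 in the control libraries, a ratio of 2.46 (95% interval 1.14 to 5.66, counting error only). For both genes the groups did not overlap, and both stayed under 1 CPM everywhere. The share of 81.6% without overlap covers tested genes only, and no such share was taken over genes under the filter. Without the filter, limma called Nid1 higher (adjusted p = 0.0229) and did not call Postn (adjusted p = 0.106). Nid2 had 1 read, in control 1, and 0 reads in the other libraries. A count of 0 allows up to 0.189 and 0.179 CPM in overexpression 1 and 2. Nid2 shares 437 exonic bases with the expressed gene Rtraf on the opposite strand, so reads of the shared bases could be placed with either gene.

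Per kilobase of exon sequence, Spp1 came first in both groups, followed by Fn1, Sparc, Thbs1, Tnc and Thbs3. Spp1 stood at 2566 ± 111 CPM per kb with overexpression and 2237 ± 103 in the control (SD, n = 2 each). For Fn1 the level was 693 ± 17.2 CPM per kb with overexpression and 851 ± 10.2 in the control. Sparc had 343 CPM per kb with overexpression and 151 in the control, and Thbs1 had 188 with overexpression and 102 in the control. Tnc had 114 CPM per kb with overexpression and 23.2 in the control, so the gap to Thbs1, the next gene above, was narrower with overexpression. Thbs3 followed at 8.29 CPM per kb with overexpression and 4.22 in the control. Neighbours among these 6 genes did not overlap within either group. Lower down, Thbs2 came before Postn and Nid1 in the control, whereas with overexpression Nid1 came first, and Postn and Thbs2 overlapped there. The order of all 10 genes was the same when the longest coding transcript was used as the length.

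Added up, the 10 genes took 15424 and 15976 CPM in the overexpression libraries, against 15217 and 14838 CPM in the control libraries. These sums were 1.57% and 1.61% of all reads with overexpression and 1.51% and 1.46% in the control. The make-up of that sum differed more than its size. Fn1 gave 51.6% of it in each overexpression library, against 65.9% and 66.4% in the control libraries. The other 9 genes together took 7598 ± 190 CPM with overexpression and 5086 ± 149 CPM in the control (SD, n = 2 each), with Sparc, Tnc, Spp1 and Thbs1 accounting for most of the gap. These sums are a description, since the genes were chosen with results of these data known.

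**Figure D3:**
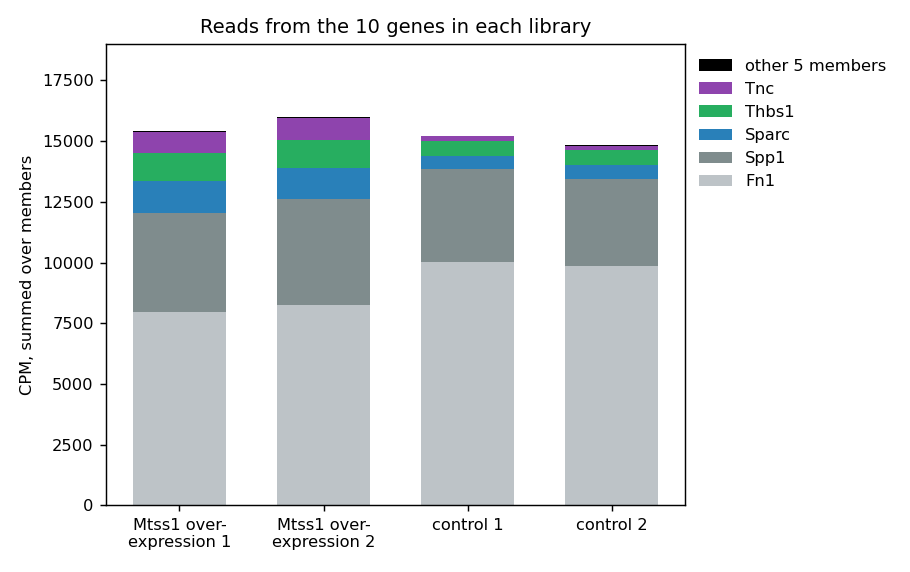
CPM of the 10 genes stacked within each library, Mtss1 overexpression on the left and control on the right. The total runs from 14838 to 15976 CPM, with a smaller Fn1 block and larger Sparc, Tnc, Spp1 and Thbs1 blocks in the overexpression libraries.

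Genes that work with these glycoproteins were examined in 5 lists from general knowledge. The lists were chosen with earlier results of these data known, so their counts and medians are a description. Of 114 such genes 82 passed the filter, of which 40 were higher, 26 lower and 16 not past the test. Their median log2 fold change was 0.12, against -0.01 over all tested genes, of which 31.9% were higher and 34.2% lower. In each list the genes with the largest changes past the test are given with their log2 fold change ± SE, and any other gene is marked as picked after its value was seen.

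Close relatives of the 10 genes were mostly not expressed. Of 18, 14 lay under the filter, 6 of them at 0 in every library, while 2 were higher and 2 lower (median log2 fold change -0.07). The other tenascins that passed the filter also rose, at low levels. Tnxb, tenascin X, read 5.99 and 5.69 CPM in the overexpression libraries, against 1.96 and 1.79 CPM in the control libraries (log2 fold change 1.25 ± 0.16). Tnn, tenascin N, read 3.66 and 2.92 CPM with overexpression and 2.16 and 1.01 CPM in the control. Its log2 fold change was 0.76 ± 0.20 (SE, limma adjusted p = 0.00203), and without control 2 it no longer passed (adjusted p = 0.0889). Smoc1, a Sparc-related calcium-binding protein of basement membranes, fell with a log2 fold change of -1.23 ± 0.13 and read 4.60 and 5.18 CPM with overexpression, against 11.7 and 14.1 CPM in the control. Dmp1, of the same gene family as Spp1, stood at 0.329 CPM with overexpression and 1.43 CPM in the control (-0.90 ± 0.22), and like Thbs2 passed the filter only through the control. It fell under the filter without control 1 or control 2.

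Basement membrane partners of the nidogens were expressed although the nidogens were not. Of 21, 14 passed the filter, with 10 higher, 2 lower and 2 not past the test (median log2 fold change 0.55). Lamb3, picked after its values were seen, is among the 10 but passed the filter only through the overexpression libraries. It read 2.14 and 2.26 CPM there, against 0.343 and 0.506 CPM in the control libraries. Fbln2, fibulin 2, which binds nidogen and fibronectin, read 758 and 763 CPM in the overexpression libraries, against 187 and 207 CPM in the control libraries (1.95 ± 0.040). Lama5, the laminin alpha 5 chain, read 808 and 785 CPM with overexpression, against 316 and 325 CPM in the control (1.31 ± 0.034). Col4a6, a minor collagen IV chain, fell (-0.72 ± 0.036). Picked after their values were seen, the main collagen IV chains Col4a1 (0.93 ± 0.033) and Col4a2 (0.80 ± 0.035) rose, and so did Lamc1 (0.44 ± 0.033), the laminin chain that nidogens bind. Lamb1 read 732 and 730 CPM in the overexpression libraries and 751 and 734 CPM in the control libraries (limma adjusted p = 0.567, not called).

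Among 25 receptors 19 passed the filter, with 12 higher, 4 lower and 3 not past the test (median log2 fold change 0.32). The thrombospondin receptor gene Cd36 read 2.27 and 2.98 CPM in the overexpression libraries, against 0 and 0.0920 CPM in the control libraries. It passed the filter only through the overexpression libraries, and without either of them it was not tested. Egfr, a receptor that the EGF-like repeats of tenascin C can bind, read 42.3 and 46.7 CPM with overexpression and 14.6 and 12.7 CPM in the control (1.63 ± 0.087). Itgb8, an integrin chain that activates latent TGF-beta, fell (-0.92 ± 0.17), as did the syndecan gene Sdc2 (-0.38 ± 0.039). Picked after their values were seen, the chains of the main fibronectin receptor, Itga5 (0.46 ± 0.036) and Itgb1 (0.26 ± 0.033), rose, unlike Fn1 itself. The osteopontin and hyaluronan receptor Cd44 (0.33 ± 0.035) rose too, while the thrombospondin receptor Cd47 fell (-0.38 ± 0.043), also picked afterwards.

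Of 21 genes for matrix assembly, crosslinking and proteolysis, 16 passed the filter, with 7 higher, 8 lower and 1 not past the test (median log2 fold change 0.02). Loxl1, picked after its values were seen, is among the 7 but passed the filter only through the overexpression libraries. It read 1.39 and 1.90 CPM there, against 0.490 and 0.598 CPM in the control libraries. Adamts1, a metalloproteinase that can cleave thrombospondins and nidogens, read 139 and 141 CPM in the overexpression libraries, against 35.3 and 34.9 CPM in the control libraries (1.97 ± 0.050). Adamts5, an aggrecan- and versican-cleaving relative, rose by a log2 fold change of 1.25 ± 0.10. The matrix metalloproteinase genes Mmp2 (-0.69 ± 0.18) and Mmp3 (-0.61 ± 0.067) fell.

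Of 29 genes reported to act on the transcription of these glycoproteins, all passed the filter, with 9 higher, 10 lower and 10 not past the test (median log2 fold change -0.01). Tead2, a DNA-binding partner of YAP, read 34.7 and 34.0 CPM in the overexpression libraries, against 0.196 and 0.276 CPM in the control libraries. It passed the filter only through the overexpression libraries, and without either of them it was not tested. Tgfb2, a TGF-beta ligand, read 19.5 and 20.9 CPM with overexpression, against 3.53 and 3.96 CPM in the control (2.16 ± 0.12). Prrx1, a homeobox factor reported to act on Tnc and picked after its value was seen, read 163 and 171 CPM with overexpression and 78.0 and 84.3 CPM in the control (1.03 ± 0.046). The receptor gene Pdgfrb (-1.18 ± 0.15) and the AP-1 subunit gene Jun (-0.71 ± 0.044) fell.

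**Figure D4:**
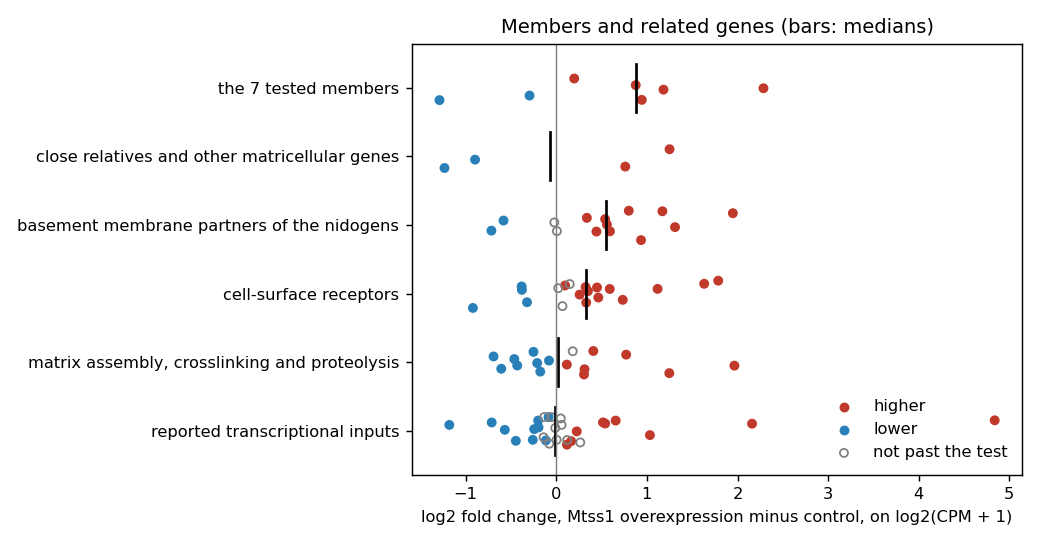
Log2 fold change of the tested members and of the tested genes of the 5 lists, Mtss1 overexpression minus control, with filled points past the test, open points not past it and bars at the medians. The median was 0.55 for the basement membrane partners and 0.32 for the receptors, and lay between -0.07 and 0.02 for the other lists.

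The tested protein-coding genes whose profile over the 4 libraries was nearest to that of Tnc were Syt11, Capn5 and Hoxd8, by Euclidean distance between gene-centred log2(CPM + 1) values. The distances were 0.0596, 0.0655 and 0.0896, and the log2 fold changes 2.23, 2.29 and 2.25. Syt11, a synaptotagmin, read 38.6 and 38.9 CPM in the overexpression libraries, against 7.59 and 7.32 CPM in the control libraries. Capn5, a calpain, read 4.79 and 4.58 CPM with overexpression and 0.147 and 0.184 CPM in the control. Hoxd8, a homeobox gene, read 3.53 and 3.99 CPM with overexpression and 0 in both control libraries. Capn5 and Hoxd8 passed the filter only through the overexpression libraries. With 4 libraries in 2 groups this likeness is mainly an equal fold change on the log2(CPM + 1) scale.

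**Figure D5:**
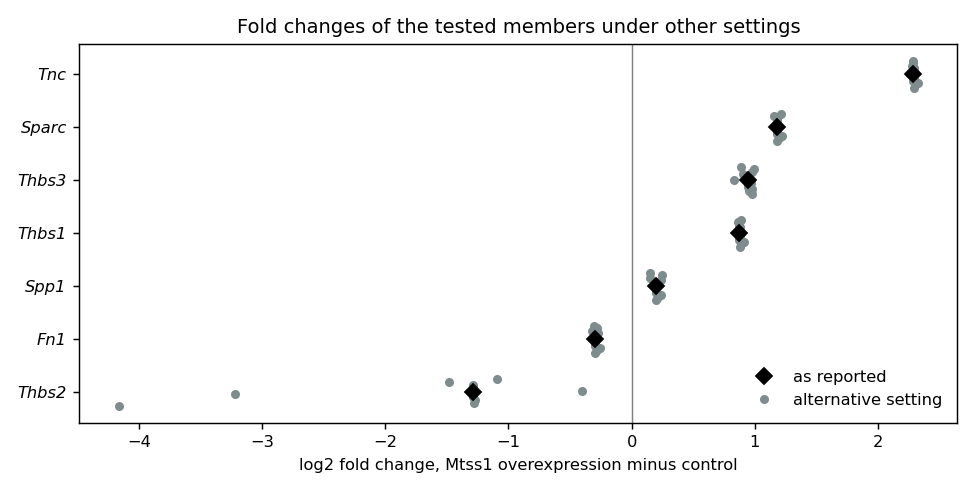
Log2 fold change of the 7 tested members, Mtss1 overexpression minus control, as reported (diamonds) and under the alternative settings (circles). The points of Tnc run from 2.26 to 2.32 and those of Fn1 from -0.32 to -0.26, whereas Thbs2 runs from -4.16 to -0.40.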

How the data were processed

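Total RNA of 4 libraries was read as 150-base paired ends after Trizol extraction, per the labels' protocols. The submitters' processing notes name FastQC 0.11.2, STAR, RSEM and build mm10 without roles. The deposited values are CPM, an assignment made from column sums near 1000000, and their scaling is not stated. Within a library most of them are multiples of 1 step, taken as the CPM of 1 read. Dividing by it gave recovered reads, whole within 0.005 read for 79.6% to 80.5% of nonzero values. A floor of 3 reads is 0.138 to 0.189 CPM.

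The filter kept genes reaching 1 CPM in 2 or more libraries. These were fitted in limma 3.58.1 (R 4.3.3; lmFit, then eBayes with trend) on log2(CPM + 1) of the deposited values. P-values were adjusted by Benjamini-Hochberg over all tested genes, with a threshold of 0.05, and fold changes on this scale understate low genes. Replicates of a group differed by 1.78 and 2.04 times the Poisson chi-square (overexpression, control), above sampling noise, and were not merged. Read ratios of low genes carry exact binomial intervals, and summed reads were rounded. Coordinates, exon lengths and overlaps come from GENCODE M21 (mm10), which matched all 10 genes. The steps were tested on simulated data. The members and lists were chosen with earlier results of these data known. The text names the 10 genes, Mtss1, up to 2 called genes with the largest rise and 2 with the largest fall in each list, and the 3 profiles nearest to Tnc. A gene that meets this rule is not reported here. Alternatives were other tests, scalings, filters, pseudocounts and thresholds, a replicate block, and leaving out each library.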

Additional observations from a re-analysis of the deposited data

How the results depend on the processing

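The directions and calls of Mtss1, Tnc, Fn1, Thbs1, Thbs3, Sparc and Spp1 were the same under all 13 alternatives. Over these, the log2 fold change ran from 2.26 to 2.32 for Tnc, 1.16 to 1.22 for Sparc, 0.83 to 1.00 for Thbs3, 0.87 to 0.91 for Thbs1, 0.15 to 0.24 for Spp1 and -0.32 to -0.26 for Fn1. The largest adjusted p was 0.0347 for Spp1, without the filter. Thbs2 was tested in 10 of the 13, with -4.16 under limma-voom on recovered reads at the low end. The count of lower members, 2, was 1 with at least 1 CPM in all libraries and 1 to 2 with 1 library left out, because Thbs2 was then not tested. Without the filter 6 members were higher, Nid1 being added. Over the 31 named genes, 383 of the 385 results in which the gene was tested kept direction and call. The exceptions were Tnn without control 2 and without the filter (limma adjusted p = 0.0700 without the filter). Thbs2, Dmp1, Cd36, Tead2, Capn5 and Hoxd8, which passed the filter only through their higher group, were tested in 10 of the 13 alternatives each. The settings that left them untested are not among the 385, so their calls cannot be counted as stable. Called genes over the whole table stayed within 1.5 times under each alternative. The replicate block gave 4040 higher and 4337 lower genes, against 3991 and 4282, and the same 5 and 2 members by count. Same-numbered libraries did not deviate together (correlation -0.02 across genes), which cannot show whether they were prepared together. With 2 libraries a group, residual degrees of freedom were 2 for each gene, beside 20 prior ones shared across genes. Depth limits what can be said of Thbs2, Postn, Nid1 and Nid2.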
